A study of Mus musculus with 6 samples.

Results

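The insulin signalling chain from the receptor to FoxO1 was examined as 9 genes in iWAT, the inguinal subcutaneous white fat, of mice transgenic for *Hlx*. These were *Insr*, *Irs1*, *Irs2*, *Pik3r1*, *Pik3ca*, *Akt1*, *Akt2*, *Foxo1* and *Grb14*, taken by symbol from the 19445 gene loci of the deposited expression table, in which each has 1 row. Of the 10 names listed, *Pde3b* was set aside, matched no row as listed and is not described here. RNA-Seq was made of iWAT from 3 transgenic mice and 3 wild-type littermates aged 12 weeks, each mouse giving its own library, and all are labelled male. The transgenic mice carried *Hlx* cDNA under the fat-selective *aP2* (*Fabp4*) promoter in addition to the endogenous gene, after backcrossing of a hybrid founder to C57BL/6, and the controls carried no transgene. The sources used here do not say whether the 3 transgenic mice came from 1 founder line. The values are FPKM, read density scaled to transcript length and to the mapped reads of the library, which allows levels of different genes to be compared.

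Insulin binds its receptor, a tyrosine kinase encoded by *Insr*, which phosphorylates the insulin receptor substrates (IRS). The IRS adaptors recruit phosphoinositide 3-kinase (PI3K), whose lipid product brings Akt to the membrane. Akt phosphorylates FoxO1 and thereby keeps it out of the nucleus, and Grb14 binds the activated receptor and blocks its kinase. In fat cells this chain promotes glucose uptake and restrains lipolysis, and much of its control lies in protein phosphorylation, which RNA levels do not show. The authors reported increased phosphorylation of Akt protein in iWAT of the transgenic mice. The RNA levels given here do not measure that protein state.

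The FPKM values of a library ran from 466059 to 542096 in total. Without read counts the number of reads behind a value is unknown, and the spacing of low values put the relative depth at 0.692 to 1.41 times that of wild-type replicate 3. *Hlx* RNA was 96.2 ± 15.3 FPKM with the transgene and 7.45 ± 0.637 FPKM without it (SD, n = 3 each), as the labels have it. *Xist*, an RNA of the inactive X chromosome, was at 20.2 to 33.6 FPKM in the 6 libraries and all 28 Y-linked loci were listed at 0, which goes against the label of male mice in both genotypes alike.

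The promoters of the IRS genes are shown first, since *Irs1* and *Irs2* both had lower RNA in transgenic iWAT and *Grb14* had higher RNA. RefSeq promoter windows of GRCm38, the build of the table (mm10), were matched for 8 of the 9 genes. *Insr* had no entry. The 250 bases before the RefSeq start of *Irs1* (chr1:82291440-82291689, minus strand), *Irs2* (chr8:11008930-11009179, minus strand) and *Grb14* (chr2:65022767-65023016, minus strand) read as follows, with matches to the motifs searched in capitals.
Irs1: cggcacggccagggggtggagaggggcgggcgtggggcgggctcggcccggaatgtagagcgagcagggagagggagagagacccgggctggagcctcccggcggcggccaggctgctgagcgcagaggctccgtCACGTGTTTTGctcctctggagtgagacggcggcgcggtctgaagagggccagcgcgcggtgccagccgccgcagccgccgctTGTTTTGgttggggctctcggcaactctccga
Irs2: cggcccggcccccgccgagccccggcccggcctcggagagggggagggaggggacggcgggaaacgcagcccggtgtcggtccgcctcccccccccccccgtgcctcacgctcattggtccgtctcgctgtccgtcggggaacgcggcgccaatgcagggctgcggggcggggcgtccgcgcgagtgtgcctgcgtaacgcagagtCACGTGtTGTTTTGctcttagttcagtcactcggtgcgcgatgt
Grb14: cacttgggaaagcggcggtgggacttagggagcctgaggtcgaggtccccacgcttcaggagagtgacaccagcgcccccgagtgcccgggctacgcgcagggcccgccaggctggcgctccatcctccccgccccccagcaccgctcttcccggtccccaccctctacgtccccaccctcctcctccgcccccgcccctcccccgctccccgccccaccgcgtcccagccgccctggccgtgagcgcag

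In *Irs1* the E-box CACGTG began 115 bases before the start and the letters TGTTTTG, a form of the insulin response element, began 111 bases before it, so that they share their last and first letters, and a further TGTTTTG lay at 32 bases. In *Irs2* the E-box began at 44 bases and TGTTTTG at 37 bases. The loci of the expression table begin further upstream than these RefSeq starts for *Irs1* and *Irs2*, so that 210 of the 250 printed bases of *Irs1* and all 250 of *Irs2*, with every marked motif, lie inside the quantified locus, whereas the table's *Grb14* locus begins at the RefSeq start. For *Irs2* the table's locus reaches the far end of *9530052E02Rik*, a gene on the opposite strand. Both motifs were added after the sequences had been seen. Each was common by itself, with CACGTG in 7.15% and TGTTTTG in 6.28% of all 32851 RefSeq promoter windows, read on both strands. The pairing of the motifs and its limit of 10 bases were also set after the *Irs1* and *Irs2* sequences had been seen. The windows of these genes had to match, so the share of the pair is no test of its rarity. An E-box and TGTTTTG that begin within 10 bases of each other were found in 9 windows, or 0.0274%. These were the windows of *Irs1*, *Irs2*, *Irs4*, *Klf11*, *Pcbp1*, *Pyroxd1*, *1700019P21Rik* and a pair of overlapping windows of *Gm38926*. The adaptor gene *Irs3* has a window without the pair. Outside the IRS family, *Klf11*, *Pcbp1* and *Pyroxd1* were not called, with log2 fold changes of -0.26, 0.01 and 0.03 (limma adjusted p = 0.301, 0.961 and 0.844), and *Irs4* was listed at 0 in every transgenic mouse and at a mean of 0.00218 FPKM in the controls. The FoxO core TGTTTAC, in 3.65% of all windows, matched in 1 of the 13 windows of the 8 genes, which belongs to *Akt1*. The cyclic AMP response element TGACGTCA and the homeodomain core TAATTA, in 1.79% and 5.29% of all windows, matched in none of the 13. These matches describe letters only, and binding was not measured.

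Of the 9 genes, all of which passed the expression filter, 3 were lower (*Irs1*, *Irs2* and *Pik3r1*) and 1 was higher (*Grb14*) in transgenic iWAT at an adjusted p under 0.05, and 5 were not called. The test was limma on log2(FPKM + 1) across the 11692 loci whose mean exceeded 1 FPKM in either genotype, where 7.03% were called lower, 11.6% higher and 18.6% in either direction. Fold changes on this scale understate those of low genes. At 7 of the 9 genes the genotypes had ranges apart from each other, beside 42.9% of all tested loci. The median log2 fold change of the 9 genes was -0.12, beside -0.01 over all tested loci. For 3 mice against 3 the smallest two-sided p of an exact permutation test is 0.1. In whole tissue, fewer cells of a type and less RNA per cell cannot be told apart.

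**Figure D1:**
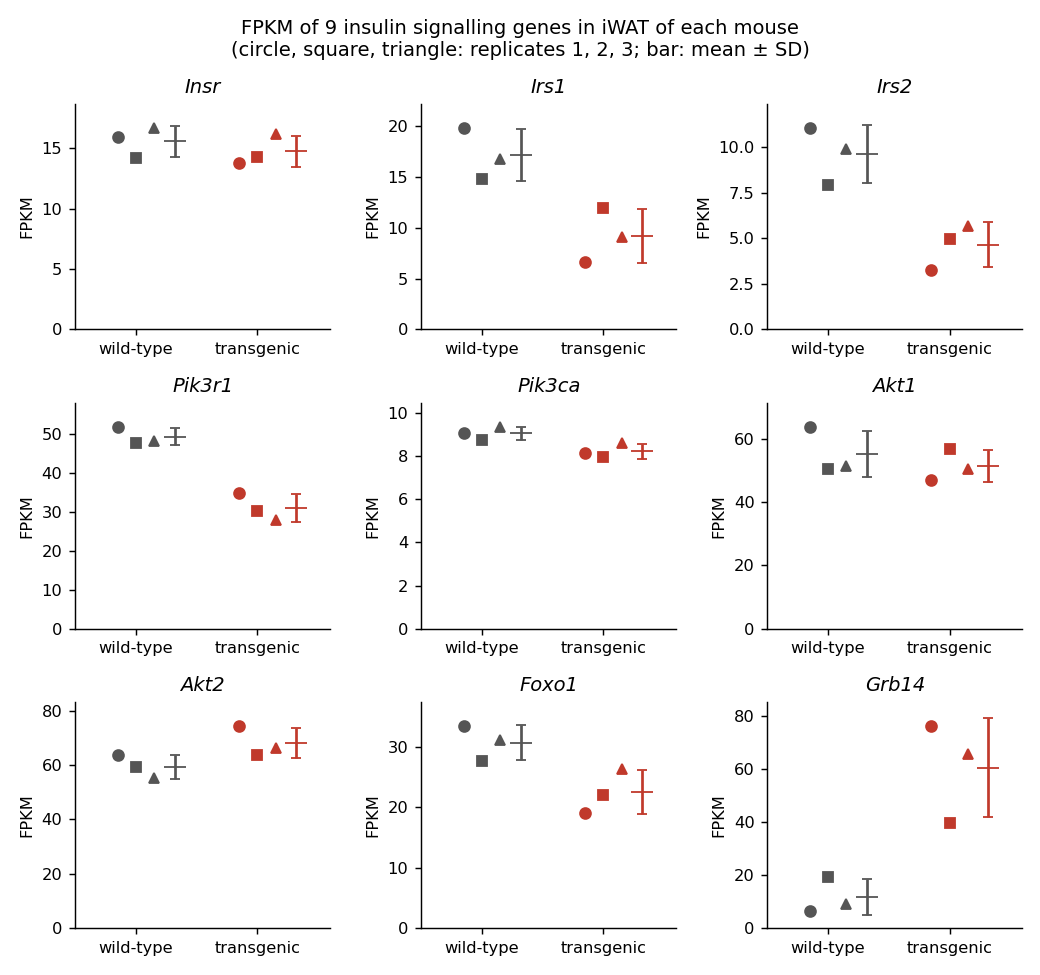
FPKM of the 9 genes (y axes, from 0) in each wild-type (grey) and transgenic (red) mouse, with the mean ± SD beside the points. The 3 transgenic mice lie below all controls for Irs1, Irs2, Pik3r1, Pik3ca and Foxo1, above them for Akt2 and Grb14, and among them for Insr and Akt1.

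The receptor gene *Insr* (chromosome 8, 3150871 to 3279742) had 13.7, 14.3 and 16.2 FPKM in transgenic replicates 1, 2 and 3 and 15.9, 14.2 and 16.7 FPKM in the corresponding wild-type replicates. The groups overlapped almost fully. Its log2 fold change was -0.08, with a 95% interval of -0.30 to 0.15 (limma adjusted p = 0.598), so a fall or rise within these bounds is not excluded by 3 mice per genotype. *Igf1r*, the related receptor for insulin-like growth factor 1, was far less abundant, with 1.74 ± 0.297 FPKM in the transgenic mice and 2.31 ± 0.175 FPKM in the controls (SD, n = 3 each; log2 fold change -0.28, limma adjusted p = 0.146). The ratio of *Insr* to *Igf1r* was 9.86, 7.54 and 8.40 in the transgenic and 7.17, 6.45 and 6.65 in the wild-type mice, higher in each transgenic mouse than in each control (exact permutation p = 0.1, 0.2 after adjustment over 6 ratios).

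*Irs1* (chromosome 1, 82233041 to 82291649), an adaptor that docks PI3K on the receptor, had 6.61, 11.9 and 9.08 FPKM in the transgenic and 19.9, 14.8 and 16.8 FPKM in the wild-type mice. All transgenic values lay below all controls, with transgenic replicate 2 and wild-type replicate 2 closest to each other. *Irs1* fell by 0.86 on the log2 scale (standard error 0.20, 95% interval -1.33 to -0.39, limma adjusted p = 0.0275), and the mean in controls was 1.87 times that in transgenic mice. The call was lost without transgenic replicate 3, wild-type replicate 1 or wild-type replicate 3 (adjusted p = 0.0782, 0.0769 and 0.0812) and without the expression filter (adjusted p = 0.0530), with a log2 fold change between -1.04 and -0.66 whenever 1 mouse was left out.

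*Irs2*, the other main adaptor of insulin action (chromosome 8, 10984692 to 11054541 in the table), had 3.28, 4.98 and 5.71 FPKM in the transgenic and 11.1, 7.94 and 9.89 FPKM in the wild-type mice. The groups did not overlap. *Irs2* fell by 0.93 on the log2 scale (standard error 0.19, 95% interval -1.37 to -0.48, limma adjusted p = 0.0176), a 2.07-fold difference of means. Without wild-type replicate 1 or 3 the adjusted p was 0.0544 and 0.0625. Several of these loci share bases with a gene on the opposite strand in GENCODE. *Irs2* shares 609 bases with *9530052E02Rik*, *Irs1* 2822 bases with *Gm9747* and *Foxo1* 1001 bases with *Gm20402*. *Insr* shares 938 bases with *Gm16180* and 871 with the pseudogene *Vmn2r-ps88*. On the same strand *Pik3r1* shares 2169 and 400 bases with *Gm36638*, *Foxo1* 2069 with *Gm38034*, *Pik3ca* 1171 with *Gm37123* and *Akt1* 75 with *Mir6939*. None of these overlapping genes has a row of its own in the table. Reads of bases shared between strands cannot be assigned to a strand in a library type that does not mark it. The table locus of *Irs2* also runs on through the whole of *9530052E02Rik*, to its end at 11054541. Whether the *Irs2* values include reads of that gene beyond the shared bases cannot be told from the deposited values.

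The ratio of *Irs1* to *Irs2* was 2.01, 2.39 and 1.59 in the transgenic and 1.79, 1.86 and 1.70 in the wild-type mice, and the groups overlapped (log2 difference 0.14, exact permutation p = 0.5, 0.6 after adjustment over 6 ratios). *Irs3*, an adaptor of rodent fat cells, was not called. Its level was 29.7 ± 2.38 FPKM in the transgenic mice and 28.7 ± 4.19 FPKM in the controls (SD, n = 3 each; log2 fold change 0.05, limma adjusted p = 0.786). The 3 adaptors together came to 43.5 ± 3.49 FPKM against 55.5 ± 8.01 FPKM. *Irs3* made up 75.1%, 61.7% and 68.3% of this sum in the transgenic mice, against 52.0%, 53.7% and 49.6% in the controls. The groups did not overlap (exact permutation p = 0.1). This and the other sums over families were chosen after the values of single genes had been seen, and with adjustment over the 20 sums and shares of 5 families the lowest p was 0.111.

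*Pik3r1* (chromosome 13, 101680761 to 101768217) encodes the p85α regulatory subunits of PI3K, which bind the phosphorylated adaptors. It had 34.9, 30.4 and 28.0 FPKM in the transgenic and 51.9, 47.9 and 48.4 FPKM in the wild-type mice, a wide gap between the groups. *Pik3r1* fell by 0.66 on the log2 scale (standard error 0.10, 95% interval -0.89 to -0.43, limma adjusted p = 0.00577), and its call held in each of the 6 fits that left out 1 mouse, with a fold change between -0.74 and -0.59. It was just lost (adjusted p = 0.0503, log2 fold change -0.66) in a fit added later without replicate 2 of each genotype, which leaves 2 mice against 2. *Pik3ca* (chromosome 3, 32397436 to 32468486), which encodes the catalytic subunit p110α, had 8.13, 7.94 and 8.60 FPKM in the transgenic and 9.07, 8.74 and 9.34 FPKM in the wild-type mice. Its groups did not overlap either, but the difference was small, with a log2 fold change of -0.12 and a 95% interval of -0.30 to 0.05 (limma adjusted p = 0.261).

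The ratio of *Pik3r1* to *Pik3ca* RNA was 4.29, 3.82 and 3.26 in the transgenic and 5.72, 5.48 and 5.18 in the wild-type mice, lower in each transgenic mouse (exact permutation p = 0.1, 0.2 after adjustment). Among the other class I subunits *Pik3cb*, which encodes the catalytic subunit p110β, fell from 14.2 ± 1.24 to 7.15 ± 0.484 FPKM (SD, n = 3 each; log2 fold change -0.90, limma adjusted p = 0.0016). The table has *Pik3cb* on 2 rows of the same locus, and the row with the higher mean was used. *Pik3r2*, *Pik3r3* and *Pik3cd* were not called. *Pik3ca*, *Pik3cb* and *Pik3cd* came to 28.4 ± 2.84 FPKM in the transgenic mice and 41.4 ± 3.05 FPKM in the controls, and *Pik3r1*, *Pik3r2* and *Pik3r3* together had 51.8 ± 5.33 and 74.6 ± 5.40 FPKM (SD, n = 3 each). Neither sum overlapped between the genotypes (exact permutation p = 0.1 for each).

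**Figure D2:**
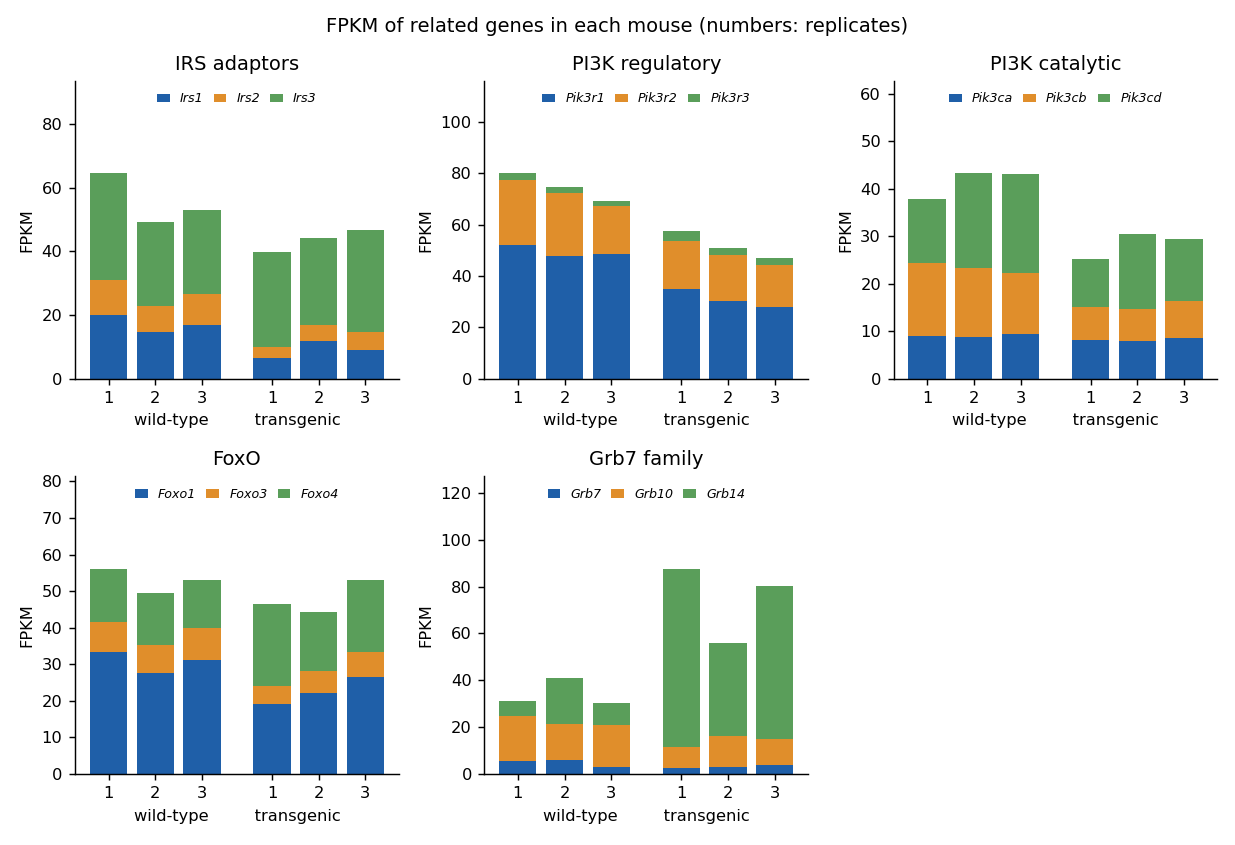
Stacked FPKM (y axes, from 0) of 3 related genes in each of the 3 wild-type and 3 transgenic mice, for 5 families. The adaptor sum was 39.8 to 46.7 FPKM in transgenic against 49.1 to 64.5 FPKM in wild-type mice with Irs3 (green) at about the same height in both, while the Grb7 family sum was 55.9 to 87.7 against 30.1 to 40.8 FPKM with Grb14 (green) taking most of the transgenic bars.

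Of the Akt kinases, *Akt2* had the highest mean level of the 9 genes in both genotypes. *Akt1* (chromosome 12, 112653820 to 112674276) had 47.1, 56.8 and 50.6 FPKM in the transgenic and 63.8, 50.7 and 51.6 FPKM in the wild-type mice, with overlapping groups (log2 fold change -0.10, 95% interval -0.38 to 0.18, limma adjusted p = 0.582). *Akt2* (chromosome 7, 27591559 to 27641127), the isoform most tied to glucose uptake in fat, had 74.3, 63.9 and 66.4 FPKM in the transgenic and 63.7, 59.2 and 55.2 FPKM in the wild-type mice. Every transgenic value was above every control, the nearest pair by a small margin, and the log2 fold change of 0.20 (95% interval -0.03 to 0.42) did not pass the test (limma adjusted p = 0.179). The ratio of *Akt1* to *Akt2* was 0.633, 0.890 and 0.762 in the transgenic and 1.00, 0.856 and 0.935 in the wild-type mice, and the groups overlapped (exact permutation p = 0.2, 0.3 after adjustment).

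*Foxo1* (chromosome 3, 52268336 to 52350109), a transcription factor restrained by Akt, had 19.1, 22.1 and 26.4 FPKM in the transgenic and 33.4, 27.7 and 31.1 FPKM in the wild-type mice. The groups did not overlap, with transgenic replicate 3 close to wild-type replicate 2. The log2 fold change of -0.44 (standard error 0.13, 95% interval -0.75 to -0.13) missed the threshold (limma adjusted p = 0.0581), and passed it without transgenic replicate 3 (log2 fold change -0.55, adjusted p = 0.0418) and with quantile normalization (-0.48, adjusted p = 0.0419). *Foxo3* had nearly the same log2 fold change, -0.40 (limma adjusted p = 0.0636), and the ratio of *Foxo1* to *Foxo3* overlapped fully between the genotypes, with geometric means of 3.78 and 3.76 (exact permutation p = 1). *Foxo4* differed the other way, with a log2 fold change of 0.43 that was not called (limma adjusted p = 0.0537). The share of *Foxo1* in the summed FPKM of *Foxo1*, *Foxo3* and *Foxo4* was 41.1%, 49.9% and 49.7% in the transgenic and 59.5%, 55.8% and 58.6% in the wild-type mice (exact permutation p = 0.1), while the sum overlapped (47.9 ± 4.60 and 52.9 ± 3.32 FPKM, SD, n = 3 each).

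*Grb14* (chromosome 2, 64912481 to 65022766), an inhibitor of the receptor kinase, had the largest change of the 9 genes. It had 76.1, 39.7 and 65.6 FPKM in the transgenic and 6.45, 19.4 and 9.09 FPKM in the wild-type mice. The groups did not overlap, although replicate 2 was the lowest of the transgenic and the highest of the wild-type mice. *Grb14* rose by 2.36 on the log2 scale (standard error 0.39, 95% interval 1.44 to 3.29, limma adjusted p = 0.00869), a 5.19-fold difference of means. The call held in all 17 alternative settings of the analysis (adjusted p up to 0.0376), and the fold change lay between 2.05 and 2.78 with 1 mouse left out. Replicate 2 also had the highest summed skeletal muscle markers of each genotype (499 and 95.5 FPKM), and without both of these libraries the log2 fold change was 3.05 (adjusted p = 0.0035).

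The ratio of *Grb14* to *Insr* RNA was 5.54, 2.78 and 4.06 in the transgenic and 0.405, 1.37 and 0.545 in the wild-type mice, a 5.91-fold difference between geometric means (exact permutation p = 0.1, 0.2 after adjustment). *Grb10*, the other member of this adaptor family known to inhibit the insulin receptor, fell instead, from 17.6 ± 1.86 to 11.1 ± 2.18 FPKM (SD, n = 3 each; log2 fold change -0.63, limma adjusted p = 0.0273), and was no longer called in 7 of the 17 alternatives (highest adjusted p 0.0863). Of the summed FPKM of *Grb7*, *Grb10* and *Grb14*, *Grb14* made up 86.7%, 71.1% and 81.6% in the transgenic and 20.7%, 47.5% and 30.2% in the wild-type mice, so the leading member of the family in RNA was *Grb14* in each transgenic mouse, *Grb10* in wild-type replicates 1 and 3 and *Grb14* in wild-type replicate 2 (exact permutation p = 0.1).

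These changes reordered the chain. In wild-type iWAT the order of mean FPKM was *Akt2*, *Akt1*, *Pik3r1*, *Foxo1*, *Irs1*, *Insr*, *Grb14*, *Irs2* and *Pik3ca*. Only the steps from *Pik3r1* to *Foxo1* and from *Foxo1* to *Irs1* separated neighbours whose ranges did not overlap. In transgenic iWAT *Grb14* stood between *Akt2* and *Akt1*, with ranges that overlapped both, and *Pik3r1*, *Foxo1*, *Insr*, *Irs1*, *Pik3ca* and *Irs2* followed. There the ranges of neighbours overlapped only among *Akt2*, *Grb14* and *Akt1* and between *Irs1* and *Pik3ca*. *Irs2* was the lowest of the 9 in each transgenic mouse. The spread between mice was smallest for *Pik3ca*, with coefficients of variation of 4.10% in transgenic and 3.32% in wild-type mice, and largest for *Grb14*, with 30.9% and 58.7%.

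**Figure D3:**
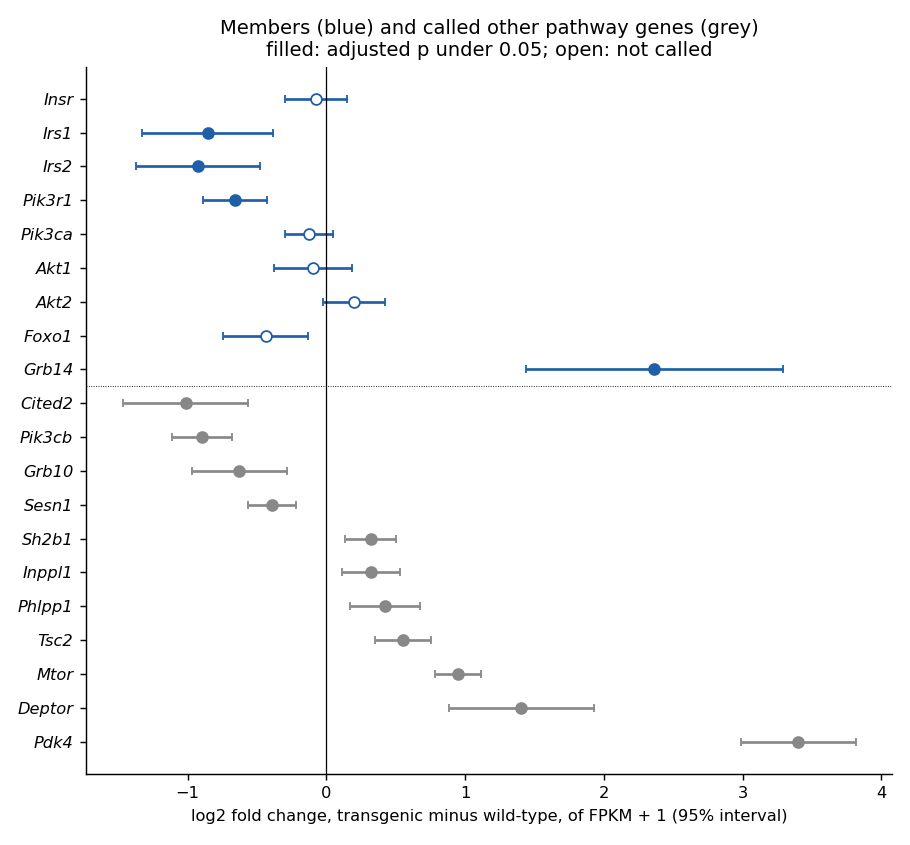
Log2 fold changes of FPKM + 1, transgenic minus wild-type (x axis), with 95% intervals from limma (n = 3 mice per genotype), for the 9 genes (blue) and the 11 other pathway genes that passed the test (grey). Among the 9 genes the filled points are Irs1, Irs2 and Pik3r1 on the left at -0.86, -0.93 and -0.66 and Grb14 on the right at 2.36.

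A wider list of 74 pathway genes was read from the same fit, of which 67 were tested. Of these, 7 were higher and 4 were lower at an adjusted p under 0.05 (limma) and 56 were not called, beside 18.6% called among all loci. Their median log2 fold change was -0.06. *Shc1* shares its row with another gene and was not counted, and *Insrr*, *Irs4*, *Foxo6*, *Trim63*, *G6pc* and *Igfbp1* did not pass the expression filter.

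Among the 9 tested receptors and adaptors, *Sh2b1*, an adaptor that enhances receptor signalling, was higher (log2 fold change 0.32, limma adjusted p = 0.0313). The other 8 were not called, and *Sh2b1* was no longer called in 9 of the 17 alternatives (highest adjusted p 0.0949). Of 5 lipid phosphatases 1 was higher, *Inppl1*, which encodes the PIP3 phosphatase SHIP2 (0.32, adjusted p = 0.0459, not called in 10 of the 17 alternatives, where the highest was 0.144). Of 14 inhibitors 1 was lower, *Grb10*, and 1 was higher, *Phlpp1*, a phosphatase of Akt (0.42, adjusted p = 0.0351, not called in 8 of the 17 alternatives, where the highest was 0.101). The feedback inhibitors *Socs1*, *Socs3* and *Trib3* were not called.

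In the mTOR branch *Mtor*, the kinase that in its second complex phosphorylates Akt, rose from 10.4 ± 0.264 to 21.1 ± 0.899 FPKM (SD, n = 3 each; log2 fold change 0.95, limma adjusted p = 0.000654). *Rictor*, *Mapkap1* and *Mlst8*, which encode its partners, and *Pdpk1*, which encodes the other kinase that activates Akt, were not called. Of 14 Akt substrates and mTORC1 genes 2 were higher and none was lower. These were *Deptor*, which encodes an mTOR-binding inhibitor (32.4 ± 7.23 to 87.4 ± 19.7 FPKM, log2 fold change 1.40, adjusted p = 0.00724), and *Tsc2*, which encodes a brake on mTORC1 that Akt phosphorylates (18.7 ± 1.43 to 27.9 ± 1.68 FPKM, 0.55, adjusted p = 0.00702). *Tsc2* lost its call only in the fit without replicate 2 of each genotype (adjusted p = 0.0534), and *Mtor*, *Deptor* and *Pik3cb* kept theirs in all 17 other settings.

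Of 16 listed genes known as targets of FoxO factors, 13 were tested, of which 1 was higher, 2 were lower and 10 were not called. Among all tested loci 18.6% were called in either direction. The median log2 fold change of the 13 was -0.20, beside -0.01 over all tested loci. *Pdk4*, which encodes a kinase that shuts pyruvate dehydrogenase, rose from 46.7 ± 9.59 to 500.3 ± 80.3 FPKM (SD, n = 3 each; log2 fold change 3.40, limma adjusted p = 0.000231). *Cited2*, a transcriptional cofactor, fell from 27.6 ± 4.49 to 13.3 ± 3.64 FPKM (-1.01, adjusted p = 0.0136), and *Sesn1*, a stress-induced regulator of mTORC1, fell from 17.9 ± 0.828 to 13.4 ± 0.437 FPKM (-0.39, adjusted p = 0.0124). The call of *Cited2* was lost without transgenic replicate 3 (limma adjusted p = 0.0528), and that of *Sesn1* without wild-type replicate 2 (0.0521) and without replicate 2 of both genotypes (0.102). Many of the listed genes answer to other factors too, so the list does not read out FoxO1 by itself.

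**Figure D4:**
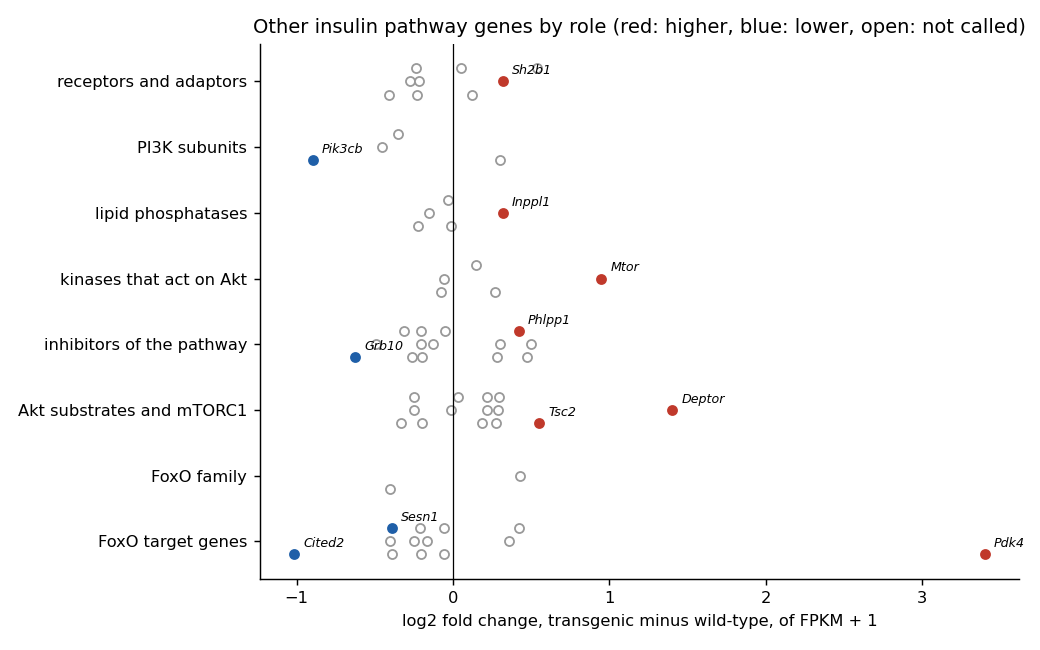
Log2 fold changes of FPKM + 1, transgenic minus wild-type (x axis), of 66 of the 67 tested pathway genes outside the 9, in rows by role (a role with a single gene is left out). Filled points passed the test (red, 7 higher; blue, 4 lower) and are named, and most of the others lie near 0.

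Markers of the cells in the tissue were measured beside these genes. None of the 6 adipocyte markers was at 0 in any library. Their summed level was 28224 to 33511 FPKM in transgenic and 23944 to 29635 FPKM in wild-type mice, with 1 of 6 called (*Adipoq*, lower). *Fabp4* alone gave most of this sum, with 24561 to 29363 FPKM in transgenic and 19297 to 23539 FPKM in wild-type mice. The ranges of *Fabp4* and *Adipoq* lay apart in opposite directions, and those of *Plin1*, *Cidec*, *Lipe* and *Pparg* overlapped. The summed level of 6 macrophage markers was 485 to 699 FPKM against 925 to 1241 FPKM, with 4 of 6 lower. That of 6 fibroblast and progenitor markers was 710 to 1134 against 1287 to 1475 FPKM, with 1 of 6 lower (*Dpt*). *Dpt* alone had 172 to 249 against 458 to 577 FPKM, while *Pdgfra*, *Col1a1*, *Col3a1* and *Pi16* each overlapped between the genotypes. For 7 lymphocyte markers the sum was 152 to 227 against 228 to 333 FPKM, with 1 lower. These 3 sums were lower in each transgenic mouse than in each control, the lymphocyte sum only just (227.5 and 228.2 FPKM at the nearest). *Irs1*, *Irs2*, *Pik3r1* and *Pik3cb* were also lower in each transgenic mouse than in each control. Taken singly, 5 of 6 macrophage, 2 of 6 fibroblast and progenitor and 4 of 7 lymphocyte markers had ranges apart. Among all tested loci the share with ranges apart was 42.9%, and 7.03% were called lower. Endothelial markers summed to 157 to 165 against 152 to 158 FPKM, with 2 of 6 higher and 1 lower, and muscle markers to 64.6 to 499 against 6.19 to 95.5 FPKM, with none of 7 called and *Myh4* at 0 in wild-type replicate 1. Epithelial markers summed to 76.0 to 153 against 115 to 177 FPKM, with none of 5 called. The part of these cells in the results was not tested.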

How the data were processed

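The authors sequenced TruSeq v2 libraries of iWAT total RNA (single-end reads of 100 bases) from 3 transgenic and 3 wild-type mice, mapped them to mm10 and deposited 1 FPKM value per gene locus and mouse, quantified with Cufflinks. The submitters' processing notes name CASAVA 1.8.2, TopHat2 2.0.9, Bowtie2 2.1.0 and Cufflinks 2.2.1; the annotation is not given in the sources used here. FPKM is not a count, so no count test was run.

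Here log2(FPKM + 1) was fitted with limma 3.58.1 in R 4.3.3 (eBayes with trend, two-sided, no covariates) over the 11692 loci whose mean exceeded 1 FPKM in either genotype, with Benjamini-Hochberg adjustment over all of them and calls at an adjusted p under 0.05. The procedure was also run on simulated independent normal values with known changes, as a check of the code and not of the single calls given here. A symbol with several rows was taken from the row with the highest mean. Single genes, 6 ratios and family sums were compared by exact two-sided permutation over 20 arrangements. Alternatives were another pseudocount (0.1), other filters, scalings, variance models and thresholds, each mouse left out, and the replicate number as a block. The genes named are the 9 members, the up to 16 other called pathway genes of largest change, every gene of a role where 5 or fewer are counted, *Igf1r* and *Foxo3*, with *Hlx* as a check. *Socs1*, *Socs3*, *Trib3*, *Irs3* and genes with the promoter motif pair were named after their values were seen. The members and lists were chosen with earlier results of these data known. Each sample is a mouse of its own. Figures were drawn with matplotlib 3.10.9.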

Additional observations from a re-analysis of the deposited data

How the results depend on the processing

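The replicate numbers name different animals, and same-numbered mice did not deviate together (correlations of 0.013, 0.034 and 0.07 over the tested loci), so they do not pair the samples. With the replicate block 1 of the 9 genes was higher and 2 were lower (*Irs1* at an adjusted p of 0.0707), and 1230 loci were called higher and 656 lower in all. Among all loci, an adjusted p under 0.01 left 569 higher and 199 lower loci, and 1 mouse left out gave 780 to 1295 higher and 329 to 906 lower. Of the 9 genes, 1 to 3 were lower with 1 mouse left out and 1 at the stricter threshold (*Pik3r1*), which also left 4 higher and 1 lower of the other pathway genes. For those, 1 mouse left out gave 4 to 8 higher and 2 to 5 lower, quantile normalization gave 9 lower and sample weights gave 10. The fit without both libraries highest in muscle markers, added after the data were seen, gave 700 higher and 408 lower loci and 4 higher pathway genes. Directions near 0 turned for *Insr*, with a log2 fold change of 0.0054 under sample weights, and for *Akt1*, which lay between -0.17 and 0.0062 with 1 mouse left out (highest without wild-type replicate 1). The log2 difference of the ratio of *Foxo1* to *Foxo3* (0.01) was -0.037 with a pseudocount of 1 and lay between -0.046 and 0.072 with 1 mouse left out. The other 5 ratios kept their direction in each setting run, and the causes of these shifts were not tested. FPKM without read counts gives no interval for a single value, and *Igf1r*, *Irs2* and other low genes are the least precise.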
